A study of Caenorhabditis elegans with 15 samples.

Results

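The vitellogenin genes of *C. elegans* encode the yolk proteins, and all 6 of them, vit-1 to vit-6, were present on the array. They were taken by their sequence names, K09F5.2 (vit-1), C42D8.2 (vit-2), F59D8.1 (vit-3), F59D8.2 (vit-4), C04F6.1 (vit-5) and K07H8.6 (vit-6). Each name had 1 spot on the array, so the family made up 6 of the 19084 gene probes. According to RefSeq, vit-1 to vit-5 lie on chromosome X and vit-6 on chromosome IV, and no protein-coding gene lies between the neighbours vit-3 and vit-4.

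The samples were whole worms of the wild-type strain N2, set up as fourth-stage juveniles and young adults and kept with *E. coli* as food for 48 h in sediment from the river Danube, Elbe or Rhine. The paper ranks the Danube sediment as least and the Elbe sediment as most contaminated. Each sediment had 5 replicates, every replicate pooled from 24 vials with 20000 worms and 0.5 g of wet sediment each, and each replicate was hybridised to 1 array. On all 15 arrays the sediment sample carried the dye Cy5, and Cy3 labelled a common reference made from the RNA of all sediment-exposed worms and a laboratory control. The methods combined several grabs of each sediment before exposure, so the replicates are repeat exposures and the p-values measure the spread between those.

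Vitellogenins are made in the intestine of the adult hermaphrodite, secreted into the body cavity and taken up by growing oocytes through the receptor RME-2. Their genes are switched on at the change from larva to adult under the control of intestinal and developmental transcription factors. The proteins carry lipid and amino acids to the embryo. As the RNA came from whole worms, fewer adults, fewer intestinal cells and less transcript per cell cannot be told apart.

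No vitellogenin differed between sediments after adjustment for all probes. The lowest unadjusted p-values against Danube were those of vit-2 and vit-3, whose ratios were low on some Danube arrays. The mean log2(Cy5/Cy3) of vit-3 was 1.36 higher with Rhine than with Danube sediment, and that of vit-2 was 0.67 higher with Elbe and 0.68 higher with Rhine. These means hold Danube replicates 2 and 4, the lowest Danube arrays for both genes, and are also given without them. The other members showed differences of at most 0.63 in either direction.

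The arrays measured the members unequally well. The software BlueFuse gives every spot a confidence score from 0 to 1 and a quality flag. Spots flagged D, M or E are called the lowest grade here, and those of the members had scores of 0.05 or less. The lowest grade took 45.7% to 61.6% of the spots on an array. For a probe to be tested, each sediment had to have 3 or more of its 5 arrays with a spot above that grade, which held for 5347 of the 19084 probes. Of the family, vit-1, vit-2, vit-3, vit-5 and vit-6 passed and vit-4 did not.

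The vit-2 and vit-6 spots were above the lowest grade on all 15 arrays. The raw Cy5 signal of vit-2 had a median of 29660 and lay between 15960 and 38130 on every array except Danube replicates 2 and 4. In Danube replicate 2 it was 4204, beside a Cy3 signal of 24670 for the reference. In Danube replicate 4 both channels were low, with 1630 in Cy5 and 2382 in Cy3. The reference RNA was the same on every array, and the Cy3 signal of this spot still ranged 14-fold. For vit-6 the Cy5 signal ranged from 2403 to 25300 and the Cy3 signal from 2597 to 9089, with the lowest value of Cy5 in Rhine replicate 1.

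The vit-5 spot was above the lowest grade on 14 arrays, the vit-3 spot on 13 and the vit-1 spot on 12. Cy5 signals of vit-5 lay between 952.4 and 10320, and in its single failing spot, Elbe replicate 2, the signals were 1534 in Cy5 and 636.1 in Cy3. The Cy5 signals of vit-3 ran from 506.7 in Danube replicate 2 to 6081 in Elbe replicate 4. For vit-1 they stayed between 1049 and 3542. The percentile of vit-1 among the gene probes of an array had a median of 58.9 and ran from 21.7 to 87.4. The confidence of vit-1 had a median of 0.09 and that of vit-3 one of 0.13, against 0.66 for vit-2 and 0.59 for vit-6.

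The vit-4 spot was above the lowest grade on 6 arrays only. Its Cy5 signal was 19540 in Danube replicate 3 and 16570 in Elbe replicate 2, and 280.4 to 4060 on the other 13 arrays. The reference channel was high on the same 2 arrays, at 9889 and 6362, and its range over all arrays was 102-fold. The 2 bright spots thus stood apart in both channels, while the ratio there was 0.10 and 0.45. The transcripts of vit-3, vit-4 and vit-5 are known to be very similar in sequence, and how far their probes bind each other's transcripts was not tested.

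**Figure D1:**
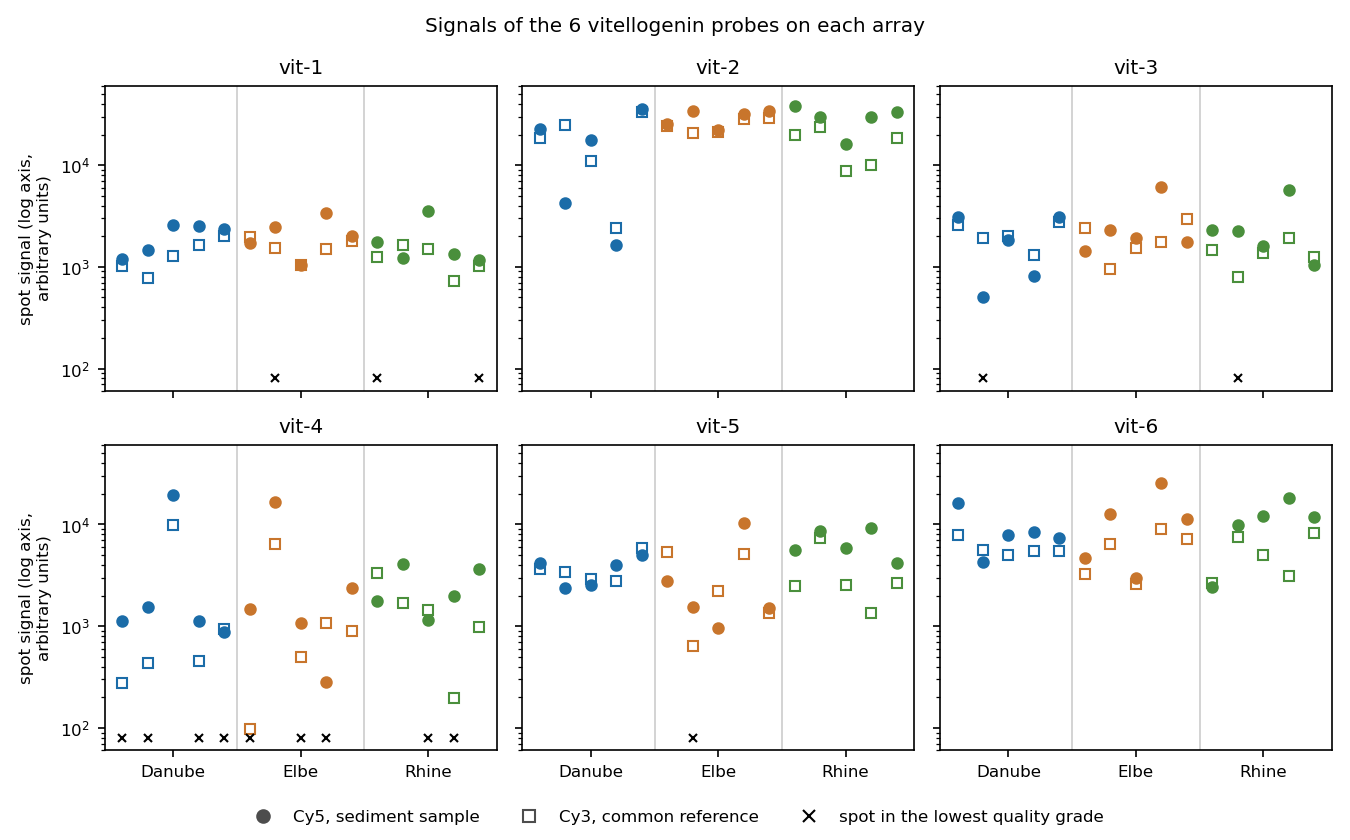
Raw spot signals of the 6 vitellogenin probes on the 15 arrays, in arbitrary units on a log axis, with filled circles for Cy5 (sediment sample), open squares for Cy3 (common reference) and crosses for spots in the lowest quality grade. Within a sediment, replicates 1 to 5 run from left to right. The Cy5 signal of vit-2 dropped to 4204 and 1630 in Danube replicates 2 and 4, and vit-4 was bright in both channels on 2 arrays only.

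After print-tip loess normalization, a log2 ratio of 0 stands for the level in which neither channel exceeds the other beyond the trend of its print block. Values below are such ratios, and differences are on the log2 scale.

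The ratios of vit-2, the best measured member on X and the source of a large yolk protein, were 0.22, -1.35, 0.05, -1.14 and -0.14 in Danube replicates 1 to 5. With Elbe sediment they were -0.04, 0.55, 0.45, -0.13 and 0.11. With Rhine sediment they were 0.59, -0.03, -0.25, 0.45 and 0.26. All 5 Elbe and all 5 Rhine arrays lay above the Danube mean, but the groups overlapped, since Danube replicates 1, 3 and 5 fell within or beside the range of the other sediments. The means were -0.48 ± 0.72 (SD, n = 5) for Danube, 0.19 ± 0.30 for Elbe and 0.20 ± 0.34 for Rhine. In order of level Rhine came first, Elbe next and Danube last, and Elbe and Rhine differed by -0.01 with a 95% interval of -0.69 to 0.67.

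Elbe exceeded Danube by 0.67 (SE 0.32) for vit-2, a 1.59-fold difference with an unadjusted p of 0.054 and an adjusted p of 0.802 by limma. Rhine exceeded Danube by 0.68 (SE 0.32), or 1.60-fold, with an unadjusted p of 0.0501 and an adjusted p of 0.386. Both comparisons use the same Danube arrays. Without Danube replicates 2 and 4 the differences were 0.15 for Elbe and 0.16 for Rhine. These arrays were picked after their low values were seen, and leaving out the lowest controls lowers such a difference by construction.

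The ratios of vit-3 were -0.22, -2.46, -0.55, -1.46 and -0.23 in Danube replicates 1 to 5. With Elbe sediment they were -1.41, 0.54, -0.01, 0.61 and -1. With Rhine sediment they were 1.1, 0.72, -0.30, 0.72 and -0.34. The arrays of Danube replicates 2 and 4 again held the lowest values, while Elbe replicates 1 and 5 were close behind. All 5 Rhine arrays lay above the Danube mean and 3 of them above every Danube array, so the groups overlapped. The spots of Danube replicate 2, the lowest value, and Rhine replicate 2, 1 of these 3, were in the lowest quality grade.

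The mean of vit-3 was -0.98 ± 0.97 (SD, n = 5) with Danube, -0.25 ± 0.91 with Elbe and 0.38 ± 0.66 with Rhine sediment. Rhine exceeded Danube by 1.36 (SE 0.50, 95% interval 0.30 to 2.42), a 2.57-fold difference. The unadjusted p was 0.0152 and the adjusted p 0.338 by limma, and vit-3 ranked 235 of 5347 probes by p. Elbe, between them in level, differed from Danube by 0.73 (SE 0.50, adjusted p = 0.877) and from Rhine by -0.63 (adjusted p = 0.67), so neither pair of neighbours differed beyond the spread. The difference of Rhine and Danube was 0.99 without Danube replicate 2 and 0.71 without replicates 2 and 4, picked in the same way.

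The study's methods set the limits for a change at 1.4-fold upwards and 0.7-fold downwards, together with an unadjusted p under 0.05. By these thresholds vit-3 with Rhine against Danube sediment was the only call among the 5 tested members in the 3 comparisons. In that comparison 11.4% of all 5347 probes passed as higher, so 1 of 5 members is not far from the share over all probes. The call was lost without Danube replicate 2 together with Rhine replicate 1, the 2 arrays with the widest ratios, where vit-3 differed by 0.81 (adjusted p = 0.674) and vit-6 passed instead at -0.53 (adjusted p = 0.593). Of all 5347 probes, 96 passed as lower without these 2 arrays. It was lost as well with array weights, in the Cy5 signal alone, in the deposited ratio table, without Danube replicates 2 and 4, and with the slide run below as a block.

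The headers number the scanned images, and Danube replicates 1 to 4 have numbers apart from those of Danube replicate 5 and all Elbe and Rhine arrays. This split in the numbers is called the slide run here, and the sources used do not state what it stands for. Danube sediment and that run can thus be told apart only through Danube replicate 5. With the run as a block, the Rhine difference was 0.61 (SE 0.87) for vit-3 and 0.35 (SE 0.57) for vit-2. The Elbe difference was then -0.02 for vit-3 and 0.34 for vit-2, and the part of the slide run in these results was not tested further.

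**Figure D2:**
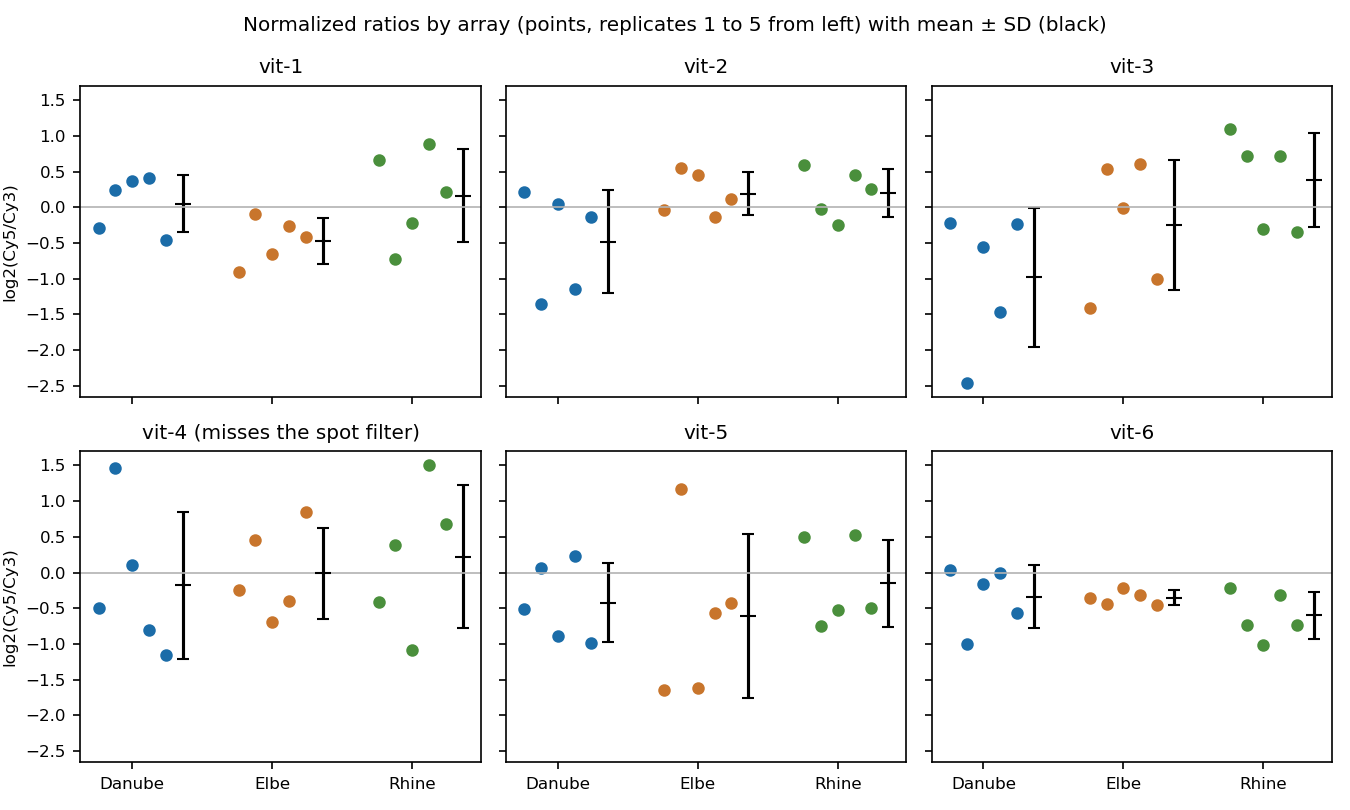
Normalized log2(Cy5/Cy3) of each member on every array by sediment, with replicates 1 to 5 from left to right as points and the mean ± SD of the 5 arrays in black. Groups overlapped for all 6 members, and the lowest points of vit-2 and vit-3 are Danube replicates 2 and 4.

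The ratios of vit-1, a further X-linked yolk gene, were -0.29, 0.24, 0.37, 0.41 and -0.46 in Danube replicates 1 to 5. With Elbe sediment they were -0.91, -0.10, -0.66, -0.26 and -0.41. With Rhine sediment they were 0.66, -0.73, -0.22, 0.88 and 0.22. All 5 Elbe arrays were below 0 and below the mean of both other sediments, and each pair of groups overlapped. The spots of Elbe replicate 2 and of Rhine replicates 1 and 5 were in the lowest quality grade. Elbe was lower than Rhine by a difference of -0.63 (SE 0.31, 95% interval -1.30 to 0.04), with an unadjusted p of 0.0631 and an adjusted p of 0.48 by limma. Against Danube it differed by -0.52 (SE 0.31, adjusted p = 0.859), and Rhine differed from Danube by 0.11 (SE 0.31, adjusted p = 0.896). The Elbe and Rhine difference turned to 0.21 when the Cy5 signal was used without the reference.

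The ratios of vit-5 were -0.51, 0.06, -0.89, 0.23 and -0.98 in Danube replicates 1 to 5. With Elbe sediment they were -1.64, 1.17, -1.62, -0.56 and -0.43. With Rhine sediment they were 0.50, -0.75, -0.52, 0.53 and -0.49. The Elbe arrays held both the highest and the lowest values, the highest of them in the spot with the lowest quality grade, and their SD of 1.15 was above that of 0.55 with Danube and 0.61 with Rhine. Elbe differed from Danube by -0.20 (SE 0.48, 95% interval -1.21 to 0.82) and from Rhine by -0.47 (adjusted p = 0.749). Rhine differed from Danube by 0.27 (SE 0.48, adjusted p = 0.818).

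The ratios of vit-4, from spots of mostly low quality, spread from -1.15 to 1.47 with Danube, from -0.69 to 0.85 with Elbe and from -1.08 to 1.5 with Rhine sediment. The 3 groups covered nearly the same range. In the fit over all 19084 probes, vit-4 differed by 0.17 (SE 0.56) between Elbe and Danube, by 0.39 between Rhine and Danube and by -0.22 between Elbe and Rhine. The adjusted p values were 0.986, 0.875 and 0.954.

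The ratios of vit-6, the autosomal member, whose product is cut into the smaller yolk proteins, were 0.04, -1, -0.16, 0.00 and -0.56 in Danube replicates 1 to 5. With Elbe sediment they were -0.35, -0.44, -0.21, -0.31 and -0.46. With Rhine sediment they were -0.22, -0.74, -1.02, -0.31 and -0.73. Danube replicate 2 was again the lowest Danube array, and the 5 Elbe arrays lay within 0.26 of each other inside the range of the Danube arrays. Rhine differed from Danube by -0.27 (SE 0.25, 95% interval -0.79 to 0.26), Elbe from Danube by -0.02 (SE 0.25, interval -0.54 to 0.51) and Elbe from Rhine by 0.25 (SE 0.25, adjusted p = 0.736). Within sediments the SD of vit-6 was 0.32, lower than that of all but 8.79% of the tested probes, and the median over all tested probes was 0.61. For the other members it was 0.48 (vit-1), 0.49 (vit-2), 0.86 (vit-3), 0.91 (vit-4) and 0.81 (vit-5).

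Counted over the family, 0 of the 5 tested members had an adjusted p under 0.05 by limma in any comparison. The share over all probes was 0.0187% with Elbe against Danube and 0% in the other comparisons. At an unadjusted p under 0.05 the counts were 0 for Elbe against Danube, 1 for Rhine against Danube and 0 for Elbe against Rhine, beside 6.32%, 12.9% and 10.7% of all probes. By the methods' thresholds, 4.34% of all probes were higher and 1.95% lower with Elbe than with Danube, and 2.49% were higher and 8.02% lower with Elbe than with Rhine, where no member passed.

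No member had groups without overlap. Over all probes, every Elbe array lay above every Danube array for 1.31% and below for 0.561%. For Rhine against Danube these shares were 1.87% and 0.243%, and for Elbe against Rhine they were 0.785% and 2.67%. The median difference of the 5 members was -0.02 for Elbe against Danube, beside 0.08 over all probes. It was 0.27 for Rhine against Danube, beside 0.24, and -0.47 for Elbe against Rhine, beside -0.17. Differences above 0 were found for 2, 4 and 1 of the 5 members in the same order, and for 57.1%, 69.9% and 35.7% of all probes.

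**Figure D3:**
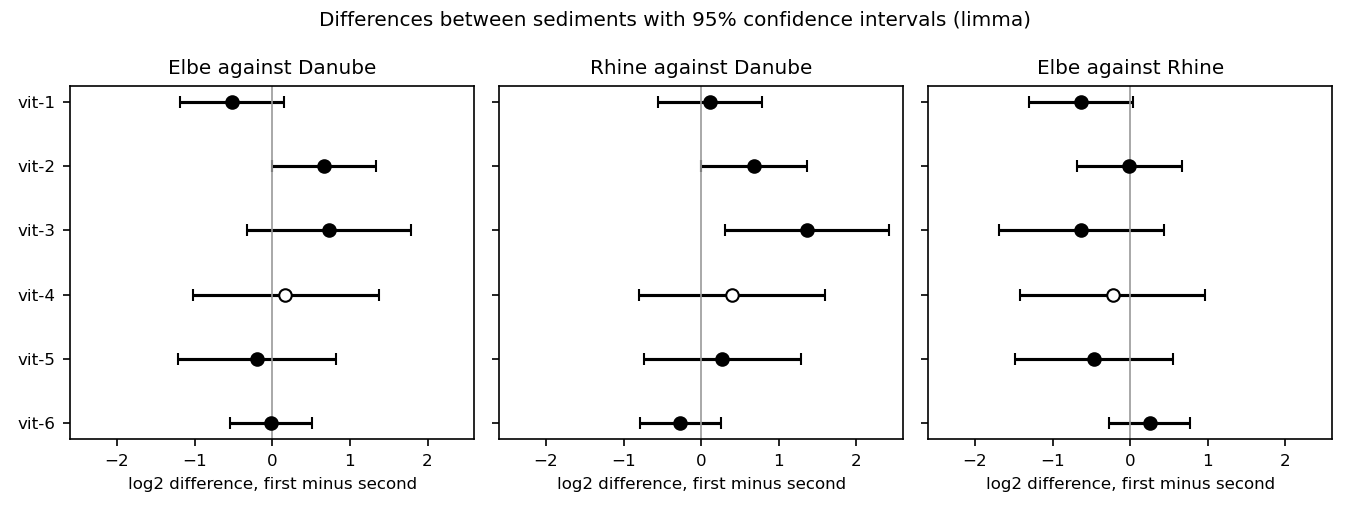
Difference in mean log2(Cy5/Cy3) between sediments for each member, as fitted by limma over 15 arrays, with 95% confidence intervals and an open circle for vit-4, which missed the spot filter. The interval of vit-3 for Rhine against Danube, 0.30 to 2.42, is the only one that leaves out 0.

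The members did not vary as 1 group over the arrays. Among the 15 pairs of members, Pearson's r of the log2 ratios over the 15 arrays ranged from -0.28 for vit-4 and vit-6 to 0.77 for vit-2 and vit-3. The median over the 10 pairs of tested members was 0.175, and over all pairs of tested probes it was 0.059. The close copies vit-3 and vit-4 had an r of -0.13, and vit-3 and vit-5 one of 0.23.

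For vit-2 and vit-3, r was 0.77 (permutation p = 0.00089, adjusted over the 15 pairs 0.0133) and Spearman's rho was 0.63 (p = 0.014, adjusted 0.108). An r as high or higher was found in 0.511% of all pairs of tested probes. Without Danube replicates 2 and 4, the 2 arrays farthest from the median of vit-2 and the lowest for both genes, r was 0.45 over 13 arrays. Leaving out arrays that are extreme in both genes lowers r by construction. With the mean of each sediment removed, r was 0.70 (permutation p = 0.009, adjusted 0.0677). Within sediments it was 0.94 for Danube, 0.36 for Elbe and 0.61 for Rhine, each over only 5 arrays. In the Cy5 signal alone r was 0.43 and in Cy3 alone -0.11.

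For vit-1 and vit-5, r was 0.69 (permutation p = 0.0043, adjusted 0.032) and rho was 0.74 (p = 0.0025, adjusted 0.037). It stayed at 0.58 without Rhine replicates 4 and 1, the arrays farthest from the median of vit-1, and at 0.66 without Danube replicates 2 and 4. With sediment means removed it was 0.70 (permutation p = 0.0013, adjusted 0.0201), and within sediments it was 0.56, 0.90 and 0.92 for Danube, Elbe and Rhine. All pairs of tested probes held 1.46% with an r as high. In Cy5 and Cy3 alone r was 0.30 and 0.24, so the likeness of this pair was in the ratio more than in either signal. Both ratios were lowest in Elbe replicates 1 and 3 among the Elbe arrays and high in Rhine replicates 1 and 4. The vit-1 spot of Rhine replicate 1 and the spots of both genes in Elbe replicate 2 were in the lowest quality grade.

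**Figure D4:**
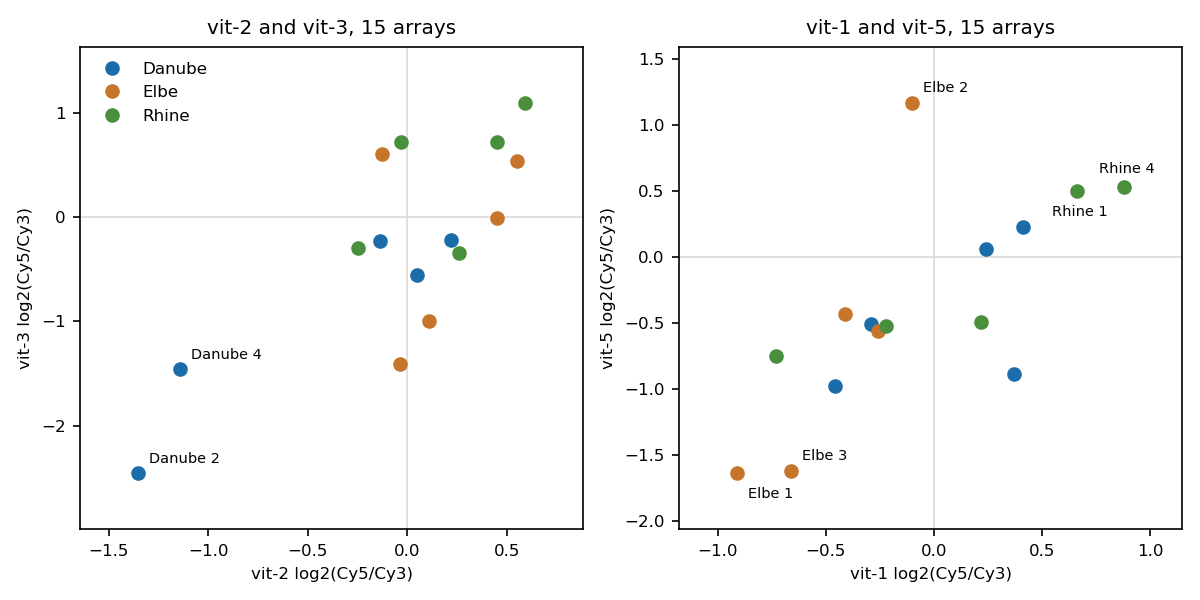
Log2(Cy5/Cy3) of vit-3 against vit-2 (left) and of vit-5 against vit-1 (right), with 1 point for each of the 15 arrays coloured by sediment. Danube replicates 2 and 4 lie apart in the left panel (r of 0.77 with them and 0.45 without), while the points of the right panel spread along the whole range (r of 0.69).

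Other gene lists were low on the same Danube arrays, but not all of them and not in every gene. In Danube replicate 2 the median ratio was -0.88 over the 9 of 12 oocyte and eggshell markers tested, -0.9 over the 6 of 8 epidermal collagen genes, -0.88 over the 4 of 5 muscle markers and -0.63 over the 8 of 13 intestine markers. Each was the lowest median of its list among the 15 arrays, with 8 of 9, 4 of 6, 3 of 4 and 5 of 8 genes below 0. The muscle and intestine means, -1.66 and -1, leaned on myo-3 at -5.24 and ges-1 at -5.52, and were -0.47 and -0.36 without that gene. The medians of the 10 vitellogenin regulators, -0.34, and of the 2 sperm markers, -1.63, were likewise the lowest of the 15 arrays. That of the 2 neuronal markers, -0.53, was the next lowest of its list. The 9 genes for yolk secretion and uptake had a median of 0.19 there. Danube replicate 2 also had the widest ratios of the 15 arrays.

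In Danube replicate 4 the medians were -0.48 for the epidermal and -0.51 for the muscle list, the next lowest of the 15 arrays. They were -0.21 for the oocyte, -0.22 for the yolk uptake and -0.04 for the intestine list, -0.08 for sperm and -0.09 for neurons. The regulators went the other way, with a median of 0.12 and the highest mean of the 15 arrays, 0.36. The part of these arrays in the vit-2 and vit-3 differences was measured only by leaving them out.

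Over whole groups, the mean of the intestine markers was between -1 and 0.43 on the Danube arrays, between -0.22 and 0.36 on the Elbe arrays and between -0.40 and 0.33 on the Rhine arrays. Their median difference was 0 for Elbe and 0.01 for Rhine against Danube, beside 0.08 and 0.24 over all probes. In the Elbe comparison 0 of the 8 passed the methods' thresholds, beside 4.34% of all probes higher and 1.95% lower. With Rhine, cpr-1, a gut cathepsin B-like protease, was past them at -0.69 against Danube (SE 0.27, adjusted p = 0.342). It was also past them in Elbe against Rhine, at 1.13 (SE 0.27, adjusted p = 0.194 by limma). Each call was 1 of 8, beside 1.44% of all probes lower with Rhine than with Danube and 2.49% higher with Elbe than with Rhine. Values for ges-1, a gut esterase, were 1.44 (SE 0.86) with Elbe and 1.13 with Rhine against Danube, and for cpr-6, a further cathepsin B-like protease, 0.05 and 0.93 (SE 0.49). The Danube mean of ges-1 held a ratio of -5.52 in replicate 2. Its median ratios were -0.11 with Danube, -0.43 with Elbe and -0.11 with Rhine sediment.

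The yolk receptor gene rme-2, expressed in oocytes, differed by 0.34 (SE 0.27, adjusted p = 0.88) between Elbe and Danube and by 0.05 (adjusted p = 0.949) between Rhine and Danube. Its ratios ranged from -0.75 to 0.13 with Danube, from -0.43 to 0.74 with Elbe and from -0.57 to 0.14 with Rhine sediment, so that the 3 groups overlapped. dsc-4, which encodes the microsomal triglyceride transfer protein that loads lipid onto secreted lipoproteins, missed the spot filter with good spots on 3, 4 and 1 arrays of Danube, Elbe and Rhine. Its ratios ran from -3.46 to 0.17 with Elbe and from -0.28 to 6.84 with Rhine, so that the groups overlapped.

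Of 18 genes for yolk secretion and uptake, 9 were tested and 0 passed either threshold in any comparison. Their median differences were 0.04, 0.15 and -0.07 for Elbe against Danube, Rhine against Danube and Elbe against Rhine, beside 0.08, 0.24 and -0.17 over all probes. The clathrin adaptor subunit genes aps-2 and apb-1 had values of opposite sign against Danube, 1.14 (SE 0.59) and -0.46 (SE 0.34) with Elbe and 1.01 and -0.39 with Rhine. The Danube mean of aps-2 held a ratio of -3.21 in replicate 3, and its median ratios were -0.31 with Danube, 0.22 with Elbe and 0.20 with Rhine. For rab-11.1, a GTPase of recycling endosomes, they were 0.26 with Elbe and 0.54 with Rhine (SE 0.30).

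Of 24 genes listed as regulators of vitellogenin transcription, 23 were on the array and 10 were tested. None passed the adjusted threshold by limma. By the methods' thresholds, nhr-49, a nuclear receptor of lipid metabolism, was higher with Rhine than with Danube by 0.94 (SE 0.40, adjusted p = 0.36). It was lower with Elbe than with Rhine, at -1.27 (SE 0.40, adjusted p = 0.307 by limma). The nhr-49 spot was above the lowest grade on 3 of the 5 Rhine arrays. sma-3, a Smad of the body size pathway, was higher with Elbe than with Rhine by 0.61 (SE 0.21, adjusted p = 0.333 by limma). Thus 1 of 10 was called higher with Rhine than with Danube, beside 11.4% of all probes. For Elbe against Rhine 1 of 10 was called higher and 1 lower, beside 2.49% and 8.02% of all probes. elt-2, the main GATA factor of the intestine, differed by -0.05 (SE 0.38) between Elbe and Danube and by -0.62 between Rhine and Danube (adjusted p = 0.482). The median of the 10 genes was 0.03, -0.25 and 0.22 in the 3 comparisons, beside 0.08, 0.24 and -0.17 over all probes.

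Oocyte and eggshell markers included 2 genes past the methods' thresholds with both Elbe and Rhine against Danube, which share the Danube arrays, and 0 past the adjusted threshold. This was 2 of 9, beside 4.34% of all probes with Elbe and 11.4% with Rhine. egg-3, needed for egg activation, was 1.07 (SE 0.31, adjusted p = 0.627) higher with Elbe and 0.80 (adjusted p = 0.342) higher with Rhine. perm-2, needed for the eggshell's permeability barrier, was 1.12 (SE 0.34, adjusted p = 0.627 by limma) and 0.83 higher. The Danube mean of perm-2 held a ratio of -1.35 and the Rhine mean 1 of 1.54. Its median ratios were -0.08 with Danube, 0.61 with Elbe and 0.09 with Rhine sediment. The eggshell protein gene cbd-1 had values of 0.28 and 0.42 (SE 0.26). The list's mean per array ranged from -1.08 to -0.03 with Danube, from -0.10 to 0.18 with Elbe and from -0.64 to 0.25 with Rhine sediment.

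Epidermal collagen genes were the list with most calls by the methods' thresholds, 3 of 6 with Elbe and 4 of 6 with Rhine against Danube, while 0 passed after adjustment. Over all probes 4.34% and 11.4% were called higher in these comparisons. The mean of the list was -0.76 to -0.18 on the Danube arrays, 0.06 to 0.91 on the Elbe arrays and 0.10 to 0.75 on the Rhine arrays. col-19, an adult cuticle collagen that marks the change to the adult, differed by 0.55 (SE 0.28) with Elbe and 0.81 with Rhine (adjusted p = 0.338). For col-119 the differences were 0.60 (SE 0.25) and 0.80 (adjusted p = 0.338 by limma), and for sqt-3 1.48 (SE 0.64) and 1.8 (adjusted p = 0.338). The Elbe mean of sqt-3 held a ratio of 3.51, and its median ratios were -0.88 with Danube, 0 with Elbe and 0.79 with Rhine. The sqt-3 spot was above the lowest grade on 3 Danube, 4 Elbe and 3 Rhine arrays. The list held collagen genes of the adult and the larval epidermis together, so it is not a list of adult genes only. Differences of its 6 tested genes from Danube ran from 0.02 to 1.48 with Elbe and from 0.01 to 1.8 with Rhine. As vitellogenin genes are adult genes, these values are given beside those of the family, and the part of worm stage in either was not tested.

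Among the muscle markers unc-15, the paramyosin gene, was past the methods' thresholds with Rhine against Danube (1.04, SE 0.37, adjusted p = 0.338 by limma). This was 1 of 4, beside 11.4% of all probes called higher. The Rhine mean of unc-15 held a ratio of 2.44, and its median ratios were -0.24 with Danube, -0.2 with Elbe and 0.46 with Rhine. myo-3 and unc-54, both myosin heavy chain genes, had values of 1.41 (SE 0.78) and 0.06 (SE 0.31) with Elbe and 1.53 and 0.23 with Rhine. The Danube mean of myo-3 held a ratio of -5.24 in replicate 2, and its median ratios were -0.26 with Danube, -0.18 with Elbe and 0.11 with Rhine. Of the sperm list 2 of the 11 genes on the array were tested, and msp-31, for a major sperm protein, and gsp-4, for a sperm phosphatase, differed from Danube by 0.45 (SE 0.30) and 0.25 (SE 0.53) with Elbe and by 0.57 and 0.01 with Rhine. Of 5 neuronal markers the synaptic genes rab-3 and snb-1 were tested, with 0.36 (SE 0.29) and 0.30 (SE 0.22) with Elbe and 0.61 and 0.10 with Rhine.

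The genes whose ratios were most like those of the family were found by Pearson's r with the mean of the 5 tested members over the 15 arrays, each member centred on its own mean. Over 5342 other probes r had a median of 0.23 and a lowest value of -0.83. The 5 highest were K04F10.3 (0.93), R148.5 (0.92), str-228 (0.89), ndub-7 (0.87) and acr-11 (0.87). With sediment means removed these were 0.94, 0.92, 0.87, 0.85 and 0.84, and without Danube replicates 2 and 4 they were 0.92, 0.90, 0.87, 0.89 and 0.85. str-228 is named as a chemoreceptor gene, ndub-7 as a subunit gene of mitochondrial complex I and acr-11 as an acetylcholine receptor gene. The arrays share their reference and their normalization, and the 5 values are the top of a ranking, so they carry no p.

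The mean of the 5 members itself was highest in Rhine replicates 1 and 4, at 0.77 and 0.70, and in Elbe replicate 2, at 0.59. It was lowest in Danube replicate 2, at -0.66, and in Elbe replicate 1, at -0.62. Danube, Elbe and Rhine arrays thus lay side by side in the middle of this range.

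**Figure D5:**
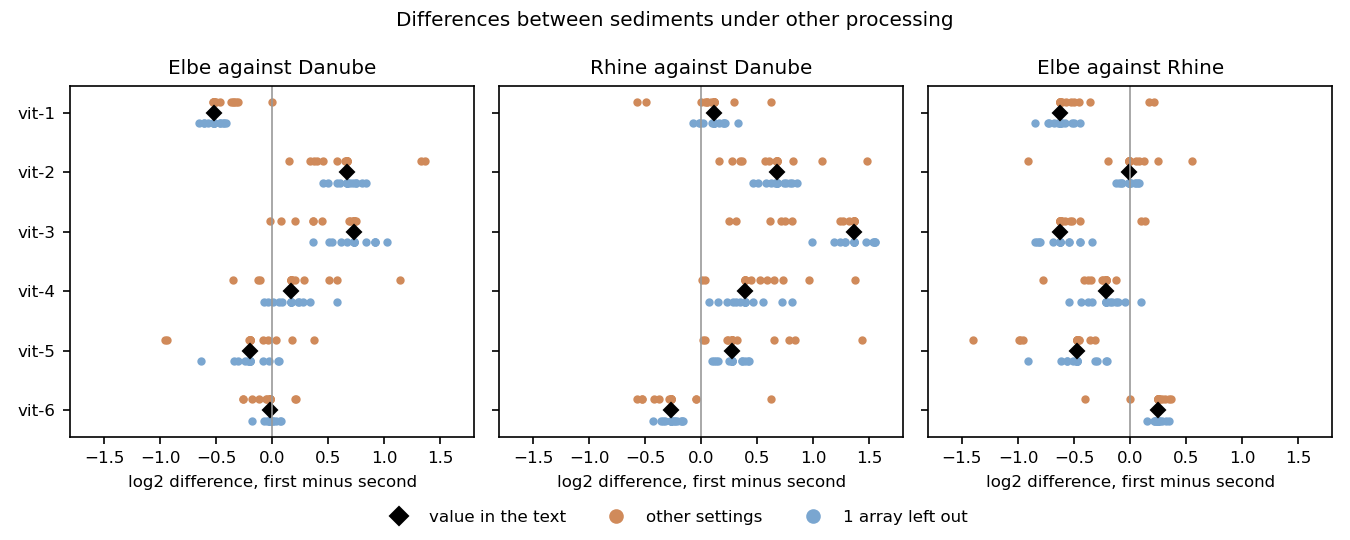
Difference in log2(Cy5/Cy3) between sediments for each member as given in the text (black diamonds), under the other processing settings (orange) and with 1 array left out (blue). For Rhine against Danube, vit-3 stayed between 0.25 and 1.55 and vit-2 between 0.16 and 1.48, while vit-1 and vit-6 lay on both sides of 0.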

How the data were processed

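For each of the 15 arrays the authors deposited the spot intensity of both channels as BlueFuse 3.4 wrote it, linear and not normalized, with a confidence score per spot, per the file headers. They also deposited a table of ratios to each gene's median, made by print-tip Lowess and median polishing, which follows the Cy5 signal. Rows of vit-1, vit-2, vit-3, vit-5 and vit-6 were found in it by their profile, and that of vit-4 was not matched.

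From the intensities, log2(Cy5/Cy3) was normalized by print-tip loess over 48 blocks in limma 3.58.1 (R 4.3.3), with the 2370 control and empty spots at weight 0. Of 19084 probes, 5347 passed the filter and 13737 did not, and 18089 matched a RefSeq symbol (WBcel235) by locus tag. A limma model (lmFit, eBayes) of sediment was fitted to the 15 arrays together, and p-values were adjusted by Benjamini and Hochberg over the 5347 probes (19084 for vit-4) with a threshold of 0.05. Correlations had two-sided permutation p-values from 1e+05 resamples. The number of arrays limits the precision. Spot images were not used here, and the genome build of the probes is not given in the sources used here.

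Named were all members, rme-2, dsc-4, per list up to 3 genes with the lowest unadjusted p against Danube, and the 5 genes most like the members. The members and lists were chosen with earlier results of these data known. The fit was tested on simulated data. Alternatives changed the loess, the scaling, an offset, the filter, the signal used, the weights, the arrays and the blocks.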

Additional observations from a re-analysis of the deposited data

How the results depend on the processing

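Under 15 other settings and with each of the 15 arrays left out in turn, 537 member differences were computed and 0 passed the adjusted threshold. Of these, 192 could not move, since the same ratios of the same arrays entered them, and of the other 345, 302 kept their direction and 43 reversed. In all settings both differences of vit-2 from Danube and those of vit-3, vit-4 and vit-5 between Rhine and Danube were above 0. Below 0 in all were vit-1 for Elbe against Danube (-0.65 to -0.004) and vit-5 for Elbe against Rhine (-1.4 to -0.21).

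With 1 loess curve per array, vit-4 was -0.13 for Elbe against Danube, vit-1 -0.002 for Rhine against Danube and vit-6 -0.003 for Elbe against Rhine. In the last comparison 1 member (vit-5) passed the methods' thresholds as lower, beside 540 of all 5347 probes. With median centring and no loess the median of all probes for Rhine against Danube moved from 0.24 to 0.80 and that of the members to 1.36. There 3 members (vit-2, vit-3 and vit-5) passed as higher, beside 1766 of all 5347 probes. In that setting vit-6 was 0.62 for Rhine against Danube and -0.40 for Elbe against Rhine. For Elbe against Rhine 1 member (vit-5) passed as lower, beside 684 of all 5347 probes. For Elbe against Danube vit-4, vit-5 and vit-6 were -0.11, 0.03 and 0.21. Scaling between arrays gave 1 call for Elbe against Danube (vit-2, higher), beside 261 of all 5347 probes, and 0.05 for vit-2 in Elbe against Rhine. With good spots on all 15 arrays only vit-2 and vit-6 were tested, with 1 call (vit-2) each for Elbe and for Rhine against Danube and a median of 0.12 for Elbe against Rhine. Of the 2213 probes tested then, 136 were called higher with Elbe and 362 with Rhine than with Danube.

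The Cy5 signal alone gave 2 calls for Elbe against Danube (vit-2 and vit-5), 0 for Rhine against Danube and 1 for Elbe against Rhine (vit-5). Of all 5347 probes, 409 were called higher and 82 lower with Elbe than with Danube. For Elbe against Rhine 127 were called lower. With it vit-4 was -0.35 for Elbe and vit-1 -0.57 for Rhine against Danube. For Elbe against Rhine vit-1, vit-2 and vit-3 were 0.21, 0.25 and 0.13 and the median 0.21. The deposited table gave 2, 0 and 1 calls, -0.49 for vit-1 in Rhine against Danube, and for Elbe against Rhine 0.17, 0.55 and 0.10 for vit-1, vit-2 and vit-3 with a median of 0.17. Of its 18363 rows tested, 578 were called higher and 546 lower with Elbe than with Danube. For Elbe against Rhine 678 were called lower. With array weights vit-3 was no longer called for Rhine against Danube (0 calls), and vit-2 was 0.12 for Elbe against Rhine. With the slide run as a block 0 members were called for Rhine against Danube, and vit-3, vit-5 and vit-6 were -0.02, 0.37 and 0.20 for Elbe against Danube. Without the 2 widest arrays vit-2 was 0.08 for Elbe against Rhine. Without Danube replicates 2 and 4, added after the data were seen, 0 members were called for Rhine against Danube and vit-5 was 0.18 for Elbe against Danube. The causes of these changes were not tested.

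With 1 array left out, 0 to 1 members passed the methods' thresholds for Elbe against Danube and for Elbe against Rhine and 1 to 2 for Rhine against Danube. Of all 5347 probes, 153 to 274 were called higher with Elbe and 394 to 664 with Rhine than with Danube. For Elbe against Rhine 304 to 511 were called lower. The ranges that crossed 0 were -0.07 to 0.58 (vit-4), -0.64 to 0.06 (vit-5) and -0.18 to 0.08 (vit-6) for Elbe against Danube, -0.07 to 0.33 (vit-1) for Rhine against Danube, and -0.13 to 0.08 (vit-2) and -0.55 to 0.10 (vit-4) for Elbe against Rhine. Of the member pairs 2 passed an adjusted p of 0.05 in the ratio, 1 with sediment means removed, 0 in Cy5 alone, 0 in Cy3 alone and 0 without Danube replicates 2 and 4, where r was 0.66 for vit-1 and vit-5 and 0.45 for vit-2 and vit-3 over fewer arrays.

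Same-numbered replicates deviated together little (correlations of -0.04 to 0.13). Whether the numbers pair the samples is not stated in the sources used, and low correlations cannot show that they do not. With the replicate number as a block, vit-3 was 1.36 (adjusted p = 0.37) and vit-2 0.68 for Rhine against Danube, and no call of a member changed. Low spot signal limits vit-1, vit-3 and vit-4 most.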
